A study of Mus musculus with 38 samples.

Results

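The mouse Bcl11b gene and the gene desert behind it were described by 153 ChIP-seq peaks, drawn from the 359759 peaks of all 17 deposited lists. A peak was taken when its centre lay between 100 kb before the gene body and 1.1 Mb after its 3' end. In the mm10 build the gene (ENSMUSG00000048251) is read from right to left on chromosome 12, from its start at 108003602 to its end at 107910403, so the window was chr12:106810403-108103602 and spanned 1293.2 kb. Positions below are given in kb after the start of Bcl11b, in the direction of transcription.

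Bcl11b encodes a zinc-finger transcription factor that is switched on as early thymic progenitors commit to the T-cell lineage, and it is required for that step. The gene sits beside a large stretch with few protein-coding genes. A distal enhancer known from earlier work lies in it, about 850 kb after the start, and RUNX1, GATA3, TCF1 and Notch signalling are known inputs to the locus. RUNX proteins bind DNA together with Cbfb, Med12 is a subunit of the Mediator complex, p300 is a histone acetyltransferase found at active enhancers, CTCF is a zinc-finger protein that organises chromatin loops, and Notch1-IC is the intracellular part of Notch1, which is released when the receptor meets its ligand and acts on DNA through RBPJ.

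All cells were of the Cas9-LP system, lines of lymphoid progenitors from fetal liver of mice that lack Ebf1 and carry Cas9 in the Rosa26 locus. LP cells were grown on OP9 stroma without a Notch ligand. Phase 1 cells were grown on OP9-DLL4 stroma, which presents the ligand DLL4, for 2 days by the methods of the study, and Phase 2 cells stand for a later stage (10 days in those methods). RUNX1, CTCF, Med12 and p300 were measured in LP and Phase 1 cells, and Notch1-IC in these and in Phase 2 cells. Retroviral guides gave 3 further pairs, each with a control guide against luciferase (sgCont): RUNX1 in LP cells with sgCTCF, Med12 in Phase 1 cells with sgCbfb, and RUNX1 in Phase 1 cells with sgMed12. Every group had 2 replicates, and the authors merged them into 1 list per group, so no peak carried a value per replicate. No spread between replicates and no test between conditions could be had, and the shares below carry 95% Wilson intervals that cover counting error only. Peak lists hold no transcripts, so neither the cell identity nor the loss of a guide's target could be checked in them.

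The lists differed in length from 152 peaks (Notch1-IC in Phase 1) to 49116 peaks (p300 in Phase 1). The score is a normalized peak score whose scale is not stated, and it was kept from 15 upwards. Scores were therefore read only within a list, as a percentile (the share of the list's peaks that score lower, the peak itself counted and tied peaks not). Neighbouring peaks of all lists that overlapped were joined into 43 sites. Of these, 18 held RUNX1, Med12 or p300 in LP cells and 31 did so in Phase 1 cells, and 13 held CTCF in either stage. Besides Bcl11b, the window overlapped 1 protein-coding gene, 3110018I06Rik at 515 kb, which is also the nearest one behind Bcl11b, and on the other side the nearest was Setd3, 102.8 kb away. The lincRNA genes 1700013N06Rik, Gm16087, Gm16086, Gm16085, Gm16084, Gm2800, Gm3234, 4930465M20Rik and Gm15208 and the processed pseudogenes Gm9599, Gm5187, Gm17052 and Gm9006 also lay in the window.

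The sequences shown are those of the Notch1-IC peaks and of the highest p300 site that RUNX1, Med12 and p300 held in Phase 1 alone (114.1 kb). Each stretch has 200 bases of the plus strand of GRCm38, centred on the Phase 2 Notch1-IC peak (854.9, 843.3, 884.3 and 852.3 kb) or on the Phase 1 RUNX1 peak (114.1 kb). Capitals mark exact matches, on either strand, to short strings that these factor families are known to bind. For RUNX the string was TGTGGTT. A second form, TGCGGTT, was also counted as RUNX. For RBPJ, the partner of Notch1-IC, the string was GTGGGAA. For PU.1, a factor of early progenitors, it was GAGGAAGT. For GATA factors it was AGATAA and for TCF1 and LEF1 it was CTTTGAT. Other forms of the sites of these families were not searched, so a stretch without a string can still hold such a form.
Site at 854.9 kb (chr12:107148586-107148785): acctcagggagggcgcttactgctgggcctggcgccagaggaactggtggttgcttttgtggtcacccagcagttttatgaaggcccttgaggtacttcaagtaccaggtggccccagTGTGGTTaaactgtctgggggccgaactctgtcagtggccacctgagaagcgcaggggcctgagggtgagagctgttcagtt
Site at 843.3 kb (chr12:107160193-107160392): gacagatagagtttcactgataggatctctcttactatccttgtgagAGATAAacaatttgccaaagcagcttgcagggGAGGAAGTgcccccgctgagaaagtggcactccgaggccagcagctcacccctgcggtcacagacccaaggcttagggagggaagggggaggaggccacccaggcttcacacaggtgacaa
Site at 884.3 kb (chr12:107119185-107119384): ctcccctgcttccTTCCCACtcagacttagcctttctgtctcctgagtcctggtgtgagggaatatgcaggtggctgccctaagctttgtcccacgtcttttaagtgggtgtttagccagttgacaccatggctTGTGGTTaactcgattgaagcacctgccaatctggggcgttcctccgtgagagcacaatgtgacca
Site at 852.3 kb (chr12:107151261-107151460): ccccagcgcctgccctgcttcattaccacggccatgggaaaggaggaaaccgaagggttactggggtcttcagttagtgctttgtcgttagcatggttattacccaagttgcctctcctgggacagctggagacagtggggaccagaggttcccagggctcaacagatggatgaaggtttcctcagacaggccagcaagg
Site at 114.1 kb (chr12:107889423-107889622): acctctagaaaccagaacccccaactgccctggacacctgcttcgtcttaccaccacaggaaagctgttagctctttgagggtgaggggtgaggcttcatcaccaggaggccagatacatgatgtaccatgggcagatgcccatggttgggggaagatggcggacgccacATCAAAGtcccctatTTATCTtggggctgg
The site at 854.9 kb held 1 RUNX string, the site at 884.3 kb held 1 RUNX and 1 RBPJ string, and the site at 843.3 kb held 1 PU.1 and 1 GATA string. None of these strings, nor that of AP-1 (TGAGTCA) or the 12-letter CTCF core, stood in the stretch at 852.3 kb, while the one at 114.1 kb held 1 GATA string and 1 TCF1 and LEF1 string.

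The peaks of the window were concentrated between 800 and 900 kb after the start. This interval is 7.73% of the window's length and held 50 of the 153 peaks (32.7%) and 10 of the 43 sites. In the count of peaks a site enters once for each list that holds it. Of single Phase 1 lists the interval held 6 of 21 RUNX1, 5 of 26 Med12 and 5 of 27 p300 peaks. In LP cells it was 5 of 13, 5 of 11 and 6 of 17. All 15 lists with any peak in the window had at least 1 there, and in 13 of them the highest-scored peak of the window lay there. The exceptions were both CTCF lists, whose highest peak was in an intron of Bcl11b, in the site at 4.7 kb.

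**Figure D1:**
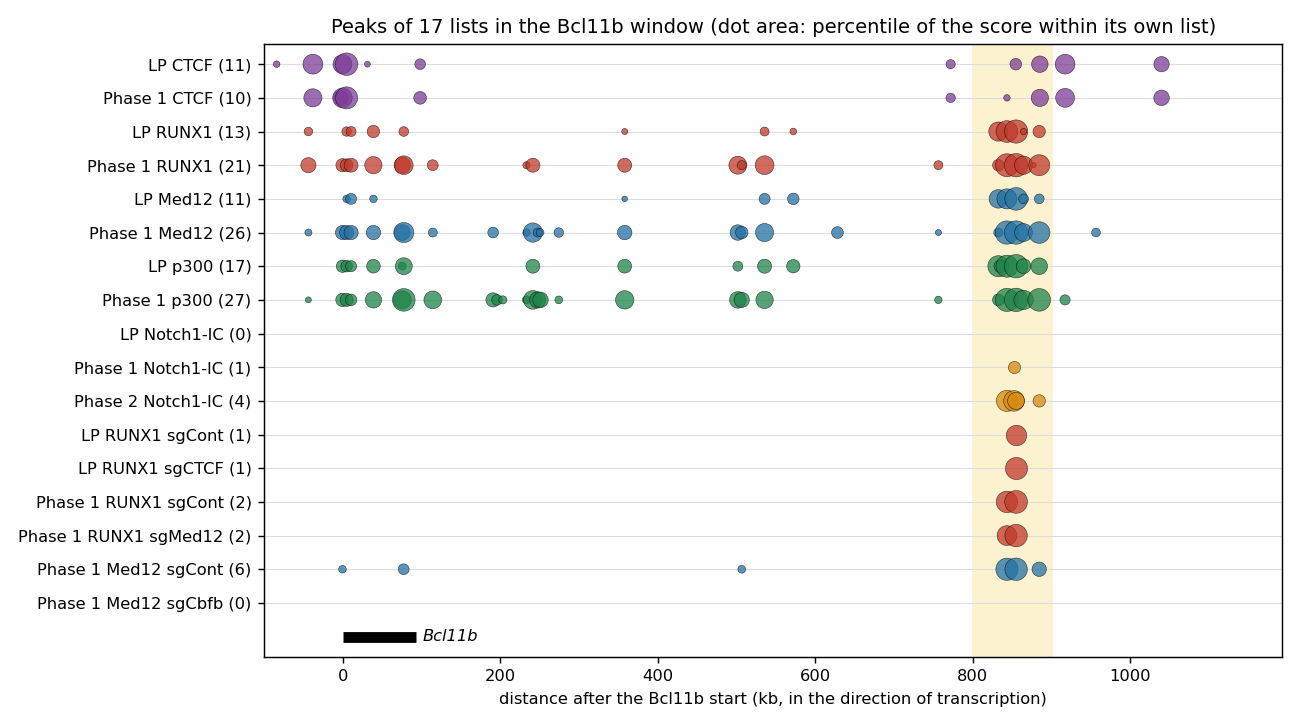
Each dot is a peak, placed by its distance in kb after the Bcl11b start (x axis) in the row of its list, with the number of peaks in brackets; the dot's area grows with the percentile of its score within its own list, the black bar is the gene and the shaded band is the interval from 800 to 900 kb. The rows for RUNX1, Med12, p300, Notch1-IC and the guides share dots in the band, while LP Notch1-IC and Phase 1 Med12 sgCbfb hold 0 peaks.

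The site at 854.9 kb (chr12:107148495-107148871, in an intron of the lincRNA gene Gm16084) was the most widely bound, with the highest peak of the window in 11 lists. For p300 it scored 813.6 in LP cells (place 72 of 36182) and 791.7 in Phase 1 cells (place 105 of 49116). For RUNX1 it scored 307.3 in LP cells (place 431 of 31995) and 412.8 in Phase 1 cells (place 200 of 38399). Both factors thus placed this site within the top 1.35% of their lists already before Notch stimulation. For Med12 the score was 180.5 in LP cells (place 2166 of 30020) and 328.6 in Phase 1 cells (place 192 of 39132), which is the top 7.22% and the top 0.491% of its lists.

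Its neighbour at 843.3 kb (chr12:107160084-107160510) lies across the start of Gm16084 and touches an exon of that gene. RUNX1 scored 127 there in LP cells and 222.9 in Phase 1 cells, at percentiles 85.4 and 95.6. Med12 scored 86 and 264, at percentiles 72.3 and 99.0, and p300 scored 175.5 and 338.5, at percentiles 88.0 and 97.6. This site was therefore strong in both stages and higher in the Phase 1 list for all 3 factors. A weak CTCF peak of Phase 1 cells (score 17.6) also fell here.

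The site at 884.3 kb (chr12:107119102-107119500, intergenic) scored low for RUNX1 and Med12 and near the middle of the list for p300 in LP cells, and ranked higher for all 3 in Phase 1 cells. RUNX1 scored 26 in LP and 101.1 in Phase 1 cells, at percentiles 24.3 and 79.1. Med12 scored 21.1 and 96.3, at percentiles 13.5 and 84.2, and p300 scored 51.4 and 207.2, at percentiles 48.1 and 93.0. A similar difference in percentile was seen at 864.4 kb. RUNX1 scored 15.9 and 54.8 there, at percentiles 2.47 and 58.5. Med12 scored 21.2 and 46.1, at percentiles 13.7 and 56.1, and p300 scored 37.4 and 70.3, at percentiles 36.7 and 66.5. At 877.0 kb a lone RUNX1 peak of Phase 1 cells scored 15.2, with neither Med12 nor p300.

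At 1 shared site of the cluster RUNX1, Med12 and p300 ranked lower in Phase 1 than in LP cells, and by percentile in the full lists it was the only shared site of the window at which RUNX1 or Med12 did. A lone p300 peak at 834.8 kb was listed in LP cells (score 27.6) and not in Phase 1 cells.

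**Figure D2:**
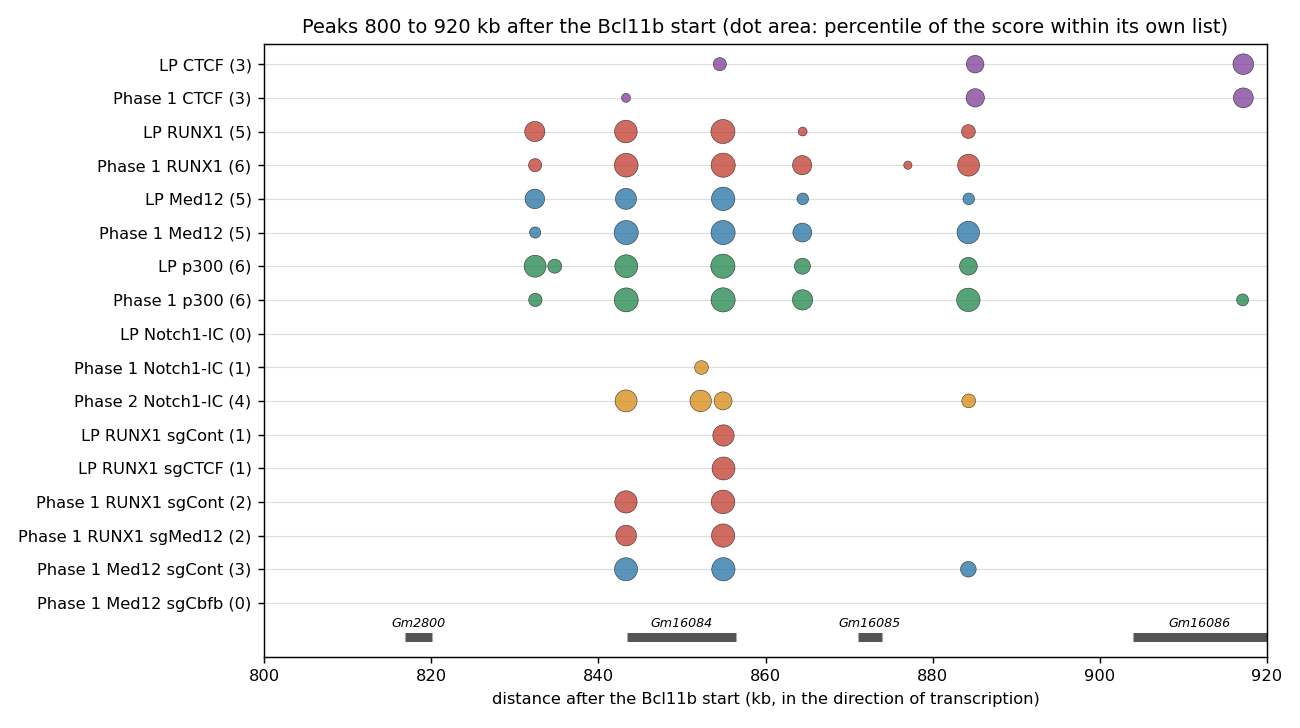
Peaks from 800 to 920 kb after the Bcl11b start (x axis, kb), 1 row per list with its number of peaks, dot area by the percentile of the score within the list, and grey bars for the lincRNA genes. RUNX1, Med12 and p300 dots are larger in Phase 1 than in LP cells at 843.3, 864.4 and 884.3 kb, and the Notch1-IC dots of Phase 1 and Phase 2 all lie between 843.3 and 884.3 kb.

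Notch1-IC peaks of the window lay only between 843 and 884 kb after the start, all in the Phase 1 and Phase 2 lists. The LP list had 0 of its 1585 peaks in the window. Phase 1 had 1 of 152 peaks, at 852.3 kb (chr12:107151195-107151435, score 16.5, place 116 of 152), and Phase 2 had 4 of 352, at 843.3 kb (score 38.1, place 70), 852.2 kb (33.8, place 85), 854.9 kb (21.2, place 175) and 884.3 kb (17.1, place 260). The same count was taken in a window of this form around each of 21938 protein-coding genes, of which 100 (0.456%) held 4 or more Phase 2 Notch1-IC peaks and 10.8% held 1 or more of Phase 1. For the LP list the median of these windows was 1 peak, so the 0 of this window is little below it. Whether Notch1-IC needs the ligand here was not tested. Windows of neighbouring genes share peaks, and these shares describe the lists and are no test. For RUNX1, Med12 and p300 the Bcl11b window held fewer peaks than the median gene window in both stages. Its LP peaks were 13, 11 and 17, beside medians of 23, 22 and 26. Its Phase 1 peaks were 21, 26 and 27, beside 28, 29 and 36. Per Mb, their Phase 1 lists were denser here than over the 21 chromosomes (16.2 against 14.1, 20.1 against 14.4 and 20.9 against 18.0). The LP lists were less dense (10.1 against 11.7, 8.51 against 11.0 and 13.1 against 13.3).

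The Notch1-IC peaks of the locus fell into 2 kinds. At 843.3, 854.9 and 884.3 kb the Phase 2 peak overlapped RUNX1, Med12 and p300 peaks of both LP and Phase 1 cells. The Phase 1 Notch1-IC list had no peak there, but it holds only 152 peaks. For this factor the paper describes larger peak sets at both of these stages than the lists used here hold. Whether those sets have peaks of the window that are missing from the lists used here is not known. RUNX1, Med12 and p300 were not measured in Phase 2 cells, so no order in time can be read from these lists. At 852.3 kb (in an intron of Gm16084) the Phase 1 and Phase 2 peaks overlapped each other and no peak of any other list. The exact RBPJ string stood within 100 bases of the centre of 1 of the 4 Phase 2 peaks (884.3 kb), beside 26.2% of that whole list and 4.08% of windows 2 kb to the side of its peaks. It was not in the stretch of the Phase 1 peak, against 36.2% of the Phase 1 list. The LP list held the string at 4.42% of its peaks, beside 4.20% of windows 2 kb aside. Only this exact string was searched for RBPJ. In the stretch shown for 852.3 kb, ATGGGAA and, on the other strand, CTGGGAA each differ from this string in the first letter. How often such forms stand at other sites was not counted.

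At the gene itself, RUNX1, Med12 and p300 scored lower than at 854.9 kb, and CTCF had its highest peaks. The site next to the start, 0.578 kb before it (chr12:108003962-108004397), held CTCF and p300 in both stages. CTCF scored 100.6 in LP and 120 in Phase 1 cells, at percentiles 63.5 and 68.0. For p300 the scores were 27.4 and 27.5, at percentiles 24.5 and 29.1. RUNX1 (26.5) and Med12 (28.4) were listed there in Phase 1 cells alone. In the gene body, p300 scored 54.4 in LP and 204.9 in Phase 1 cells at 77.3 kb, in an intron, where RUNX1 scored 20.3 and 60.2, and where Med12 was listed in Phase 1 cells alone (68.6). The intronic sites at 4.7, 10.4 and 38.8 kb held all 3 factors in both stages, with scores of 17.5 to 46.6, and the one at 75.4 kb held p300 in LP cells (17.8) and all 3 in Phase 1 cells (34.7 to 55).

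More RUNX1 sites of the window were listed in Phase 1 alone than in LP cells alone. Stage-specific peaks are those that overlap no peak of the same factor in the other stage by at least 1 base. Of the 21 Phase 1 RUNX1 peaks 9 were Phase 1-specific (42.9%, interval 24.5% to 63.5%), beside 30.7% of the whole Phase 1 list. Of the 13 LP peaks 1 was LP-specific (7.69%, interval 1.37% to 33.3%), beside 16.8% of the whole LP list. Both whole-list shares lay within the intervals of the window.

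The 5 highest-scored Phase 1-specific RUNX1 sites lay between the start and 501.5 kb after it or just before the start, none in the distal cluster. They lay at 501.5 kb (score 52.3), 75.4 kb (39.9), 241.2 kb (29.5), 0.578 kb before the start (26.5) and 114.1 kb (21.3). The others scored from 15.2 to 18.5. The LP-specific RUNX1 peak was at 572.0 kb (chr12:107431440-107431816, score 16.4), and Med12 (24.8) and p300 (31) were LP-specific at the same site.

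Med12 had the highest Phase 1-specific share of the 4 factors. Of its 26 Phase 1 peaks 16 were specific (61.5%, interval 42.5% to 77.6%), beside 38.2% of the whole list, and of its 11 LP peaks 1 was specific (interval 1.62% to 37.7%), beside 19.5%. For p300, 12 of 27 Phase 1 peaks were specific (44.4%, interval 27.6% to 62.7%), beside 41.6%, and 2 of 17 LP peaks (interval 3.29% to 34.3%), beside 20.7%. For p300 the Phase 1 share in the window was close to that of the list. CTCF had 3 specific of 11 LP peaks (interval 9.75% to 56.6%), beside 9.55%, and 2 of 10 Phase 1 peaks (interval 5.67% to 51.0%), beside 8.35%.

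List length and score moved with these counts. The Phase 1 lists were longer than the LP lists for RUNX1, Med12 and p300, and with the same number of top-scored peaks in both stages the Phase 1-specific count was 5 of 17 for RUNX1 (22.3% of the trimmed list), 6 of 15 for Med12 (27.4%) and 5 of 18 for p300 (30.9%). Among Phase 1 peaks that scored from 15 to under 30, the specific share was 12 of 17 for Med12 in the window and 68.1% in the whole list, and for RUNX1 7 of 11 and 62.9%. At 30 and over it was 4 of 9 and 21.2% for Med12, and 2 of 10 and 14.3% for RUNX1.

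**Figure D3:**
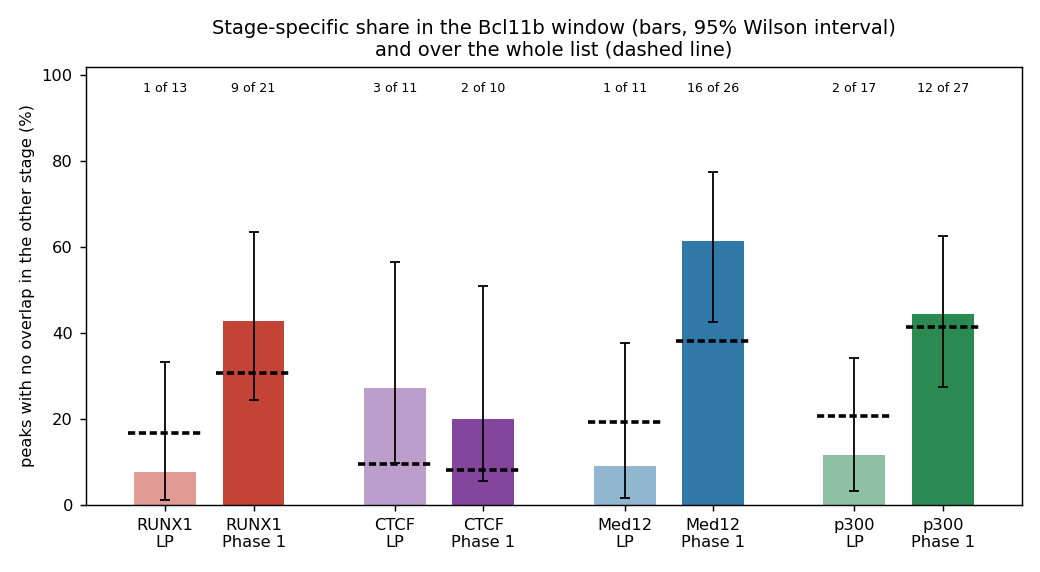
Bars give the percentage of the window's peaks that overlap no peak of the same factor in the other stage (y axis, %), with 95% Wilson intervals and the counts above, and dashed lines give the same percentage over the whole list. The interval of Phase 1 Med12 (42.5% to 77.6%) lies above its dashed line at 38.2%, as does that of LP CTCF by a little (9.75% against 9.55%), and the other 6 intervals contain theirs.

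The nearer desert held most of the sites listed in Phase 1 cells alone, 9 of 15. Between the end of the gene and 300 kb, LP cells had 0 peaks of RUNX1, 0 of Med12 and 1 of p300, whereas Phase 1 cells had 3, 7 and 9. Of the 10 sites with any of these factors in this stretch, the one at 241.2 kb was the exception, since it held p300 in LP cells (33.7). The others included a group in the introns of Gm15208 between 233 and 251 kb. Most of these peaks were low, with p300 scores of 17.2 to 61.9 against 791.7 at the distal site. Phase 1-specific in this stretch were 3 of 3 RUNX1, 7 of 7 Med12 and 8 of 9 p300 peaks, beside 30.7%, 38.2% and 41.6% of the whole lists. Among all Phase 1 peaks that scored from 15 to under 30 these shares were 62.9%, 68.1% and 68.7%. At 30 and over they were 14.3%, 21.2% and 28.2%.

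In all, 20 sites of the window held RUNX1, Med12 and p300 together in Phase 1 cells and 11 did in LP cells, 10 of them in both. At 4 sites all 3 were present in Phase 1 and none was listed in LP cells, namely 114.1 kb (p300 score 51.8), 506.5 kb (34.9), 233.1 kb (17.6) and 756.2 kb (16.8). A further 6 sites held all 3 in Phase 1 cells and 1 or 2 of them in LP cells. The reverse, all 3 in LP cells and none in Phase 1 cells, was the site at 572.0 kb.

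At sites listed in both stages, percentiles within the list were compared. The Phase 1 lists of RUNX1, Med12 and p300 are longer, which by itself raises a percentile. Of 12 shared RUNX1 sites 11 had a higher percentile in the Phase 1 list than in the LP list (interval 64.6% to 98.5%), beside 61.8% of all 26610 shared RUNX1 sites. The count was 9 of 10 for Med12 (interval 59.6% to 98.2%), beside 58.9%, and 13 of 15 for p300 (interval 62.1% to 96.3%), beside 64.3%. CTCF had 5 of 8 (interval 30.6% to 86.3%), beside 45.7%, and its percentiles differed by -12.3 to 9.10. LP sites under a score of 30 more often ranked higher in Phase 1 over the whole lists too (77.5% of all shared RUNX1 sites, 79.9% for Med12 and 77.0% for p300), and the window's were 9 of 9, 7 of 7 and 5 of 5. Among those at 30 and over it was 2 of 3, 2 of 3 and 8 of 10. With lists of equal length the count was 10 of 12 for RUNX1 (43.4% of all shared sites), 8 of 9 for Med12 (40.8%), 9 of 13 for p300 (38.6%) and 5 of 8 for CTCF (48.7%).

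**Figure D4:**
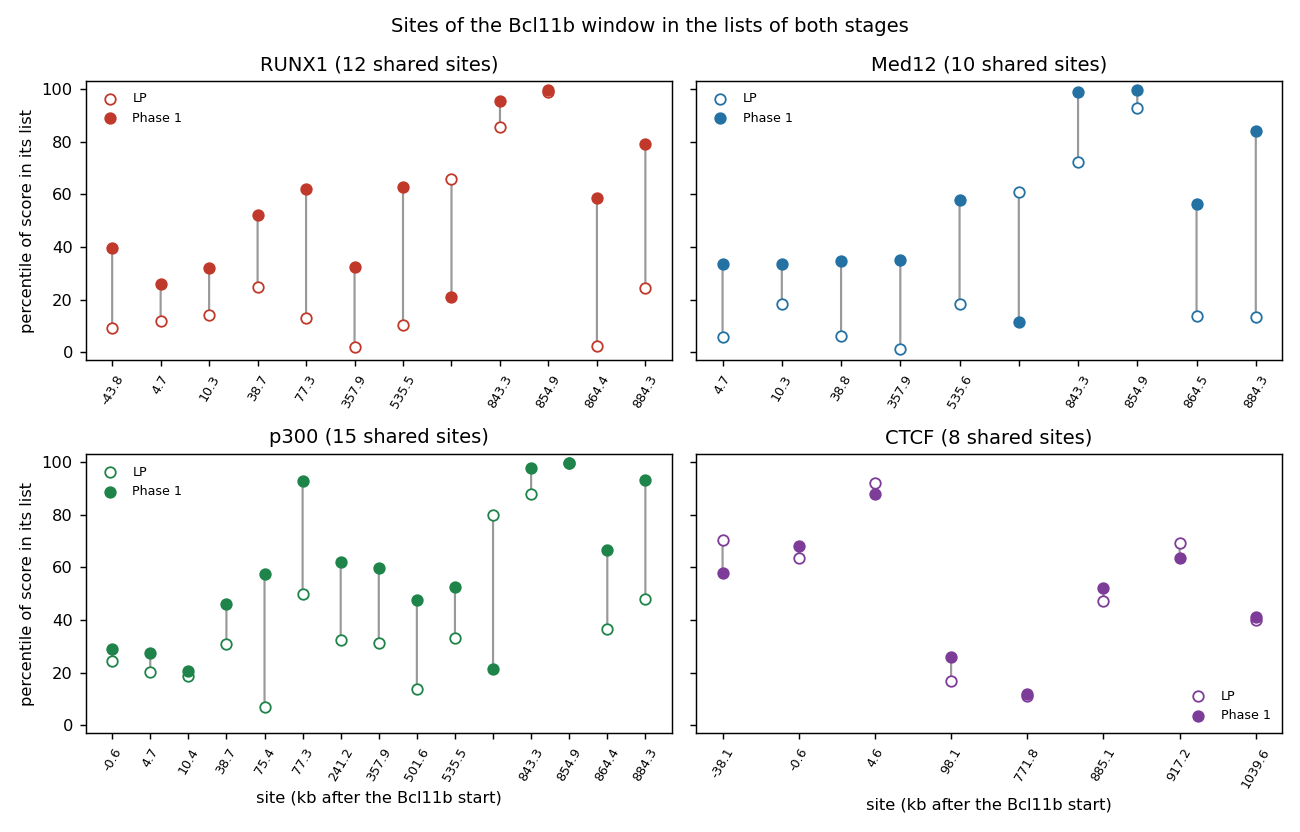
For each site listed in both stages (x axis, in order and evenly spaced, labelled in kb after the Bcl11b start except for 1 site), the open circle is the percentile of the LP score and the filled circle that of the Phase 1 score, each within its own list (y axis, 0 to 100). Filled circles lie above open ones at 11 of 12 RUNX1, 9 of 10 Med12 and 13 of 15 p300 sites, while the CTCF circles stay close together.

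RUNX1, Med12 and p300 were found together in the window, largely as in the whole lists. Of the 9 Phase 1-specific RUNX1 peaks 8 overlapped Med12 and 8 overlapped p300 of the same stage (88.9% for both), beside 75.0% and 79.6% of all such peaks. The 12 shared RUNX1 sites all overlapped both in Phase 1 cells, beside 90.9% with Med12 and 91.4% with p300 of all shared RUNX1 sites. Of the 26 Med12 peaks in Phase 1 cells 20 overlapped RUNX1 (76.9%, against 84.4% of the list), and so did all 11 in LP cells (against 90.3%). Of the 27 p300 peaks in Phase 1 cells 20 did (74.1%, against 68.6%), and of the 17 in LP cells 12 (70.6%, against 80.3%).

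CTCF peaks were fewer per Mb here than over the genome. The window had 8.51 CTCF peaks per Mb in LP and 7.73 in Phase 1 cells, beside 16.6 and 16.4 over the 21 chromosomes. Of the CTCF peaks, 8 of 11 in LP and 6 of 10 in Phase 1 cells overlapped no RUNX1, Med12 or p300 peak of either stage, beside 76.7% and 76.4% of the whole lists. CTCF overlapped 1 of 13 RUNX1 peaks in LP cells (7.69%, interval 1.37% to 33.3%), against 23.2% of the list, at 4.7 kb in an intron, the highest CTCF peak of the window (225.7 in LP and 214.5 in Phase 1 cells). In Phase 1 cells it overlapped 3 of 21 (against 15.7%), at 4.7 kb, beside the start and at 843.3 kb.

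The higher CTCF peaks stood before and beside the start, just inside the gene and on the far side of the distal cluster. They lay 38.1 kb before the start (122.5 in LP and 88.6 in Phase 1 cells), beside the start, at 4.7 kb, at 885.1 kb (60 and 74.4), next to the RUNX1 site at 884.3 kb, and at 917.2 kb (119.8 and 105). The stage-specific ones scored low, 16.6, 15.8 and 27.4 in LP cells at 84.1 kb before the start, 31.1 kb and 854.5 kb, and 17.6 and 42.7 in Phase 1 cells at 843.3 kb and 2.76 kb before the start. The peak at 854.5 kb of LP cells lay directly beside the site at 854.9 kb, the strongest of the window, and has no counterpart in the Phase 1 list.

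The CTCF core with at most 1 mismatch was found at 4 of the 13 sites with CTCF, within 100 bases of the peak's centre, always on the plus strand. The share by peak was 4 of 11 in LP cells (36.4%, interval 15.2% to 64.6%), below the 62.9% of the whole LP list, and 2.51% of windows 2 kb aside held it. The 4 matches are shown because their strand gives a direction to these sites, and each has 1 mismatch.
Before the start by 38.1 kb (chr12:108041748-108041759): CCACAAGGGGGC
Site at 98.1 kb (chr12:107905533-107905544): CCAGAAGAGGGC
Site at 854.5 kb (chr12:107149109-107149120): CCAGTAGGGGAC
Site at 917.2 kb (chr12:107086427-107086438): CCAGGAGGGGGC
At the best match of their stretches, the CTCF sites beside the start and at 4.7 kb differed from the core by 4 and 2 letters.

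The RUNX string, in the forms searched (TGTGGTT and TGCGGTT), was not spread evenly over the RUNX1 peaks. It stood within 100 bases of the centre of 5 of 21 Phase 1 peaks (23.8%, interval 10.6% to 45.1%), beside 25.4% of the list and 5.65% of windows 2 kb aside. Of the 6 Phase 1 peaks between 800 and 900 kb 4 held it (854.9, 864.4, 877.0 and 884.3 kb), and of the 15 elsewhere 1 did (10.4 kb). In LP cells it was 3 of 5 and 1 of 8. This split was noticed in the data and has no test. TGTGGTC stands in the stretch shown for 854.9 kb and TGCGGTC in that for 843.3 kb, and neither form was counted.

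With sgCbfb, no Med12 peak was listed in the window. The sgCont list of Med12 in Phase 1 cells had 6 peaks, at 843.3 kb (score 90.1), 854.9 kb (97.4), 884.3 kb (27.3), 77.3 kb (20.1), 506.5 kb (16.9) and 0.578 kb before the start (16.7). All 6 were missing from the sgCbfb list (interval 61.0% to 100%), beside 32.2% of the whole sgCont list, and the sgCbfb list had 0 peaks in the window. The sgCbfb list was a little shorter, with 18099 peaks against 19053. Outside promoters 50.2% of sgCont peaks were missing, and of the 328 of these that scored 90 or more it was 51 (15.5%), a class that holds the 2 highest peaks of the window. The cut at 90 lies just under the score at 843.3 kb (90.1). Of those outside promoters that scored from 30 to under 90, 38.6% were missing, and this class held 0 of the window's peaks. Another 3 of the window's peaks fell in the class outside promoters that scored from 15 to under 30, of which 60.2% were missing in the whole list. All 6 sites had a Med12 peak in the Phase 1 list without a guide, which held 26 peaks in the window. The paper reports that cells lacking Cbfb, Ctcf or Med12 were hard to obtain in number. Their ChIP-seq used as few cells as possible and was noisier for it. What part this had in the missing peaks was not tested.

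The RUNX1 guide lists were short, and what they held here was the distal pair. In LP cells 1 of 975 sgCont peaks lay in the window, at 854.9 kb (score 32.7, place 240), and it was present with sgCTCF (score 39, place 97 of 874), so that 0 of 1 was missing, beside 40.9% of the list. In Phase 1 cells 2 of 1550 sgCont peaks did, at 854.9 kb (50.9, place 85) and 843.3 kb (37.6, place 265). Both were present with sgMed12 (34.5, place 175 of 2094, and 24.9, place 630), so that 0 of 2 were missing, beside 29% of the list. With 1 and 2 peaks the intervals reach 79.3% and 65.8%, so a share as high as that of the whole lists lies within them.

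The genes of known regulators of Bcl11b were read in the same way, within 50 kb of each gene body. The list held Runx1, Cbfb, Notch1, Rbpj, Gata3, Tcf7, Myb, Ets1, Tcf3 and Tcf12. Phase 1-specific RUNX1 sites outnumbered LP-specific ones at 8 of the 10, beside 36.3% of all 21938 protein-coding genes, and for Med12 at 9 of the 10, beside 41.1%. Many genes had equal counts (46.8% for RUNX1 and 42.1% for Med12), and 16.9% had more LP-specific sites for either factor. At Rbpj there were 8 Phase 1-specific and 0 LP-specific RUNX1 sites, and at Notch1, the receptor, 8 and 3. Gata3, a T-lineage zinc-finger factor, had 1 and 0, and Tcf7, which encodes TCF1, had 3 and 1. Cbfb had fewer (2 and 3) and Ets1 as many (2 and 2). These genes held more of both classes than the typical gene (median 3 Phase 1-specific and 1 LP-specific RUNX1 site, against 1 and 0 over all genes).

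The genes whose pattern of counts was most like that of Bcl11b over the 10 lists of more than 10000 peaks were Nhsl1, Mocs1, Chsy1, Tns3 and Memo1. Pearson r was 0.988 to 0.995 over lists. It compares the pattern and not the level of the counts. Nhsl1 had 45 LP CTCF and 69 Phase 1 p300 peaks against 11 and 27 for Bcl11b, while Tns3 had 12 and 29. The likeness used the Med12 lists with sgCont and sgCbfb, so a lower count with sgCbfb in these genes is part of how they were chosen. None had a Notch1-IC peak of Phase 1 or Phase 2 in its window, as was usual. Of all 21938 gene windows 10.8% held 1 or more of Phase 1, and the median count of Phase 2 was 0.

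Near the edges of the window, a site just outside resembled those inside. At 1201.2 kb, about 8 kb past the far end, lay Phase 1 peaks of RUNX1 (27.8), Med12 (33.8) and p300 (67.4) and a Phase 2 Notch1-IC peak (21.1), and none of LP cells. The outermost site inside that end was CTCF at 1039.7 kb (48.2 in LP and 52.4 in Phase 1 cells). On the other side the outermost peak inside was CTCF 84.1 kb before the start (16.6, LP cells), and the first outside were CTCF peaks 17.9 kb beyond the edge (178.1 in LP and 148.9 in Phase 1 cells).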

How the data were processed

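ChIP-seq of the Cas9-LP lines gave 34 ChIP samples and 4 inputs in 19 groups of 2; inputs had no list and were not analysed here. Per the methods and labels, the authors aligned reads to mm10 with Bowtie 1.1.1, called peaks with HOMER (version not given in the sources used here) against a matched control, kept those reproducible between the 2 replicates, and deposited 1 list per group with a normalized peak score of at least 15. Read depth is not given in the lists. Labels and methods differ on the sequencer and read length.

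Groups came from sample titles. Members were selected by peak centre, using GENCODE M21 for genes and the GRCm38.p6 sequence of RefSeq for bases. Stages and guides were compared by overlap of at least 1 bp, partners likewise. Strings were searched on both strands in 200 bp around each centre. Scores were compared only as ranks within a list. The overlap functions were tested on simulated data with known answers. No test between conditions was run, since no value per replicate exists. Python 3.11.15, pandas 2.3.3, scipy 1.17.1 and pysam 0.24.0 were used; 122 peaks off the 21 named chromosomes were left out of densities and string counts.

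Members and lists were chosen with earlier results of these data known. Peaks named were all Notch1-IC and RUNX1 guide peaks, those within 1 kb of the start or from 800 to 900 kb after it, the 3 highest of each list, the 5 highest stage-specific RUNX1 sites of each stage, the CTCF peaks nearest to the start and the interval, and up to 5 sites with RUNX1, Med12 and p300 in Phase 1 only. Other sites are named after their values were seen, and the percentile comparison was added then too. Likeness of genes used log2((count + 1)/(mean + 1)) over 10 lists. Alternatives were a score of at least 30, other overlap rules, equal list lengths, no promoter peaks, other membership rules and a wider interval. The sequence and coordinates of 1 site are not reported here.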

Additional observations from a re-analysis of the deposited data

How the results depend on the processing

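With only peaks that scored at least 30, the window held 3 LP and 10 Phase 1 RUNX1 peaks, 6 LP CTCF peaks, 3 and 9 Med12 peaks, 11 and 16 p300 peaks, 2 sgCont Med12 peaks and 2 Phase 2 Notch1-IC peaks. Specific sites were then 0 for CTCF in LP cells and, in Phase 1 cells, 7 for Med12 and 7 for p300, and 0 Phase 1-specific RUNX1 sites overlapped CTCF. All 2 sgCont Med12 peaks left were missing with sgCbfb, and 1 of the 2 sgCont RUNX1 peaks was missing with sgMed12, since its sgMed12 peak scored under 30. Shared sites higher in the Phase 1 list were 2 for RUNX1, 2 for Med12, 8 for p300 and 3 for CTCF. In the gap without protein-coding genes, which leaves out the distal interval, the window held 6 LP and 13 Phase 1 RUNX1 peaks, 6 and 5 CTCF peaks, 4 and 17 Med12 peaks, 9 LP p300 peaks, 3 sgCont Med12 peaks and 0 Phase 2 Notch1-IC peaks. With equal list lengths, Phase 1-specific sites were 5 for RUNX1, 6 for Med12 and 5 for p300, and LP-specific ones 2 for Med12 and 4 for p300. The other 81 of 114 values recomputed stayed within 1.5 times, among them all under overlap of 50% of the shorter peak, centres within 500 bp, membership by any base, no promoter peaks and the interval from 750 to 950 kb. No paired analysis was possible because each list merges both replicates. The Notch1-IC and RUNX1 guide lists hold 152 to 2094 peaks, so few window peaks could be compared in them, and the read depth behind them is not known here.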

Other observations

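In the nearest 300 kb of desert, p300 without RUNX1 was listed in Phase 1 cells at 190.7 kb (score 30.4), 195.7 kb (21.2), 203.1 kb (17.6), 247.3 kb (40.1), 250.9 kb (36.5) and 274.1 kb (17.2), the last in an exon of 4930465M20Rik. Over the window 20 of 27 p300 peaks of Phase 1 cells overlapped RUNX1 (74.1%), beside 68.6% of the list.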
